A study of Mus musculus with 6 samples.

Results

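The genes described here are the mitochondrial ribosomal protein genes, taken as the 78 rows whose symbol is Mrpl or Mrps followed by a number and at most 1 letter, pseudogenes excluded, out of 49315 genes in the deposited count table. The choice used names and no measured value. Of the 78, 51 encode proteins of the large subunit of the mitochondrial ribosome and 26 encode proteins of the small subunit. Mrps36 keeps its historical symbol, but its product belongs to the 2-oxoglutarate dehydrogenase complex. Mrps30 and Mrps18a, despite their symbols, encode large-subunit proteins and are counted there. All 78 are protein-coding in the GENCODE M21 annotation of GRCm38, and they lie on 17 chromosomes.

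RNA from sorted mouse hepatocytes was sequenced in 6 libraries, 3 labelled control and 3 labelled miR-206. By the design text, male C57BL/6J mice aged 8 weeks (3 mice) received a hydrodynamic injection of 20 µg of pT3-TTR-miR-206-IRES-GFP. In this plasmid the TTR promoter drives both the microRNA and GFP. It was given with 0.8 µg of pCMV/Sleeping Beauty transposase plasmid. Hepatocytes were perfused from the liver 4 weeks later. GFP-negative cells formed the control group and GFP-positive cells the miR-206 group, so that both groups come from injected livers and differ in carrying detectable GFP as well as the microRNA. The sample labels call all controls wild-type with an empty vector, which the design text does not mention, and the labels do not tie a library to an animal, so that p-values measure the spread between these libraries. The Mir206 row held 0 counts in every library, where 3 counts, the limit that a count of 0 allows, are 0.197 to 0.722 CPM (counts scaled to the library total). The microRNA itself cannot serve as a check of the labels in this table.

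Mitochondria have their own ribosome, which translates the few mRNAs transcribed from mitochondrial DNA, all of them for subunits of the respiratory chain and ATP synthase. Its RNA is encoded in mitochondria, but every one of its proteins is encoded in the nucleus, made in the cytosol and imported. Many of these proteins have bacterial homologues (names such as uL2m or bS6m mark them), and others were gained by mitochondria. Hepatocytes are rich in mitochondria and make large amounts of respiratory chain. Nuclear genes of this class often carry promoter sites for the ETS factor GABPA, for NRF1 and for YY1. miR-206 is a muscle microRNA that lowers mRNAs with sites for its seed in their 3' UTR.

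The mature miR-206 sequence is shown because its seed (bases 2 to 8, in capitals) marks which members hold a site. RefSeq for GRCm38.p6 places it at chr1:20679055-20679076, plus strand.
mmu-miR-206-3p: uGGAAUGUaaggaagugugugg

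The match to this seed (ACATTCC) occurred in the longest annotated 3' UTR of 7 of the 78 Mrp genes (8.97%), beside 2100 of 20892 protein-coding genes (10.1%). They are Mrpl1, Mrpl32, Mrpl35, Mrpl48, Mrps5, Mrps17 and Mrps25. In Mrpl32 and Mrps25 the match is followed by an A, which makes it the 8-base class of site. Those 2 sites and that of Mrpl1, the member that rose after background correction, are shown with the match in capitals and GRCm38 coordinates.
Mrpl1 (chr5:96265124-96265153, plus strand): ctcgttttgtgACATTCCttgaggagacat
Mrpl32 (chr13:14609980-14610009, minus strand): tagaaataatcACATTCCattgtcgtcgta
Mrps25 (chr6:92172308-92172337, minus strand): agcattttcctACATTCCatgtataaatat

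Promoter windows of 300 bases (250 before and 50 after the start) were found for 69 of the 78 genes in RefSeq for GRCm38.p6, and 3 motifs were searched on both strands. The ETS/GABPA letters CCGGAAG stood in the windows of 26 members (37.7%), beside 9.93% of all 27025 genes with a window. That larger set was not limited to protein-coding or expressed genes, whereas all members are protein-coding. The YY1 letters AAGATGGC stood in 12 members (17.4%, against 3.19%) and the NRF1 letters GCATGCGC in 8 (11.6%, against 3.05%). The NRF1 letters and their reverse strand can overlap each other, as in Mrpl32, and a gene was counted once however many matches it held. A match describes the letters and not occupancy. The windows of Mrpl14 and Mrps21 are shown because these were the most abundant large-subunit and small-subunit members per exonic length in the controls; in Mrps21 the ETS/GABPA letters are in capitals, and Mrpl14 holds none of the 3.
Mrpl14 (chr17:45686099-45686398, plus strand): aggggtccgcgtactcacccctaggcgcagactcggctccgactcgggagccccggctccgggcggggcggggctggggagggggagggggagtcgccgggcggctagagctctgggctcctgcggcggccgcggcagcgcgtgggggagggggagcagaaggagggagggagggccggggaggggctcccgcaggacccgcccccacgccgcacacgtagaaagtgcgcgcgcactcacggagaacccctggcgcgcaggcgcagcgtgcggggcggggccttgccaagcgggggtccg
Mrps21 (chr3:95871465-95871764, minus strand): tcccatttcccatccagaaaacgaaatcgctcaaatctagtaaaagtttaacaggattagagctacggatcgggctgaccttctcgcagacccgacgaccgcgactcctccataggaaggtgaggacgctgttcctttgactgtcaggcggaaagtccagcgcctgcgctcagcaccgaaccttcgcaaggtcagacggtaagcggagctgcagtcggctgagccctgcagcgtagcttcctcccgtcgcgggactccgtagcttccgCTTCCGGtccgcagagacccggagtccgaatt

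The libraries held 4157947 to 15244017 counts. Counts on olfactory and vomeronasal receptor genes, which hepatocytes are not known to express, were 1.26 to 3.05 per exonic kb for controls and 3.70 to 5.45 for miR-206. Spread evenly over all exons, that rate would account for 0.801% to 5.33% of the Mrp counts in the controls and 33.5% to 35.5% of those in the miR-206 libraries. Mitochondrially encoded genes took 9.16% to 36.0% of control counts and 11.2% to 63.8% of miR-206 counts. Markers moved with the groups too, in summed CPM of normalised library size. The 25 hepatocyte identity genes ran from 106936 to 257256 for controls and from 30489 to 83914 for miR-206 (16 of 25 fell). These genes also served as a scale, the hepatocyte scale, which centres their own mean change. Their 6 falls and 8 rises on it are therefore no separate result. The 12 Kupffer cell markers ran from 369 to 1641 and from 50.1 to 62.9 (12 of 12 fell, 7 on the hepatocyte scale). The 10 sinusoidal endothelial markers ran from 579 to 629 and from 127 to 145 (10 of 10 fell, but 2 fell and 1 rose on that scale). The 10 stellate cell markers ran from 293 to 892 and from 123 to 141 (6 of 10 fell, but 2 fell and 4 rose on that scale). Cholangiocyte markers ran from 851 to 3040 and from 45.1 to 106 (4 of 6 tested fell, 2 on the hepatocyte scale), and lymphocyte markers from 451 to 463 and from 95.9 to 106 (4 of 11 fell and 3 rose, against 2 and 6 on that scale). Over all genes tested 29.6% fell and 25.8% rose, and on the hepatocyte scale 3.28% fell and 59.5% rose. Each of these markers had counts in at least 1 library of each group. Their part in the Mrp results was not tested.

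Mrp mRNAs were a smaller share of the miR-206 libraries. They made up 0.244% (95% exact binomial interval 0.240% to 0.248%), 0.310% (0.307% to 0.313%) and 0.305% (0.302% to 0.308%) of counts outside mitochondrial DNA in control 1, 2 and 3. In the miR-206 libraries the shares were 0.102% (0.0984% to 0.105%), 0.151% (0.146% to 0.157%) and 0.130% (0.126% to 0.134%). The groups did not overlap. These intervals cover counting error and not the background, and without molecular identifiers the reads may repeat molecules. In such bulk libraries fewer cells of a type and less RNA per cell cannot be told apart.

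**Figure D1:**
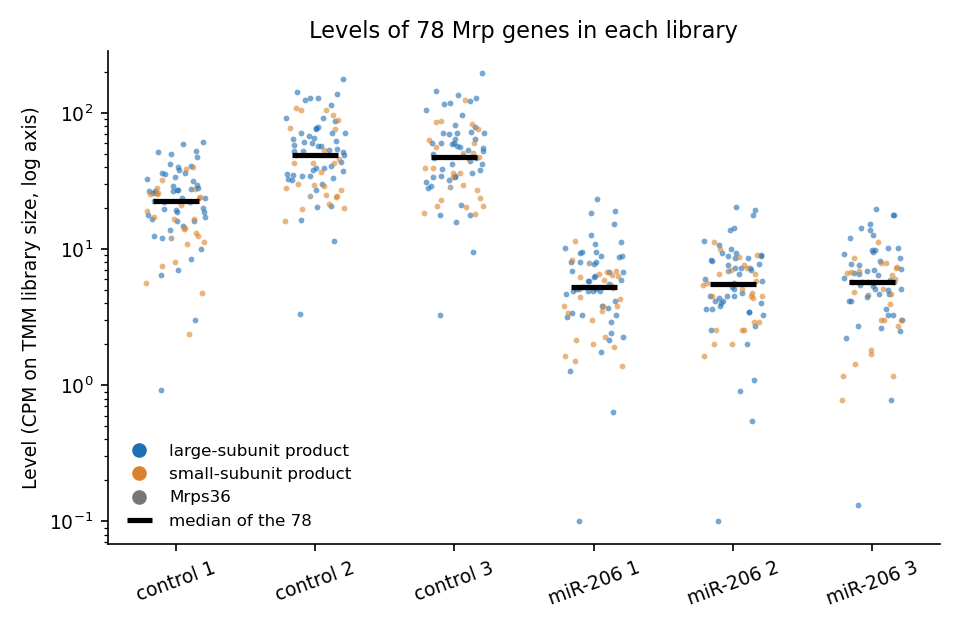
Level of each Mrp gene in the 6 libraries, in CPM of TMM-normalised library size on a log axis; blue points are large-subunit genes, orange points small-subunit genes, the grey point Mrps36, black bars the median of the 78, and sideways spread is for display. The 2 values of 0 (Mrpl53) are drawn at 0.1. Medians are 22.5, 49.0 and 47.9 CPM in the controls and 5.25, 5.55 and 5.76 CPM in the miR-206 libraries, and control 1 lies between.

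With the counts as deposited, 75 of the 77 Mrp genes tested fell and none rose in the miR-206 libraries (edgeR quasi-likelihood test, Benjamini-Hochberg adjusted p under 0.05), but with hepatocyte identity genes as the scale 13 fell and 3 rose. On that scale 3.28% of all genes tested fell and 59.5% rose, with a median of 2.51. The 3 members that rose there were Mrpl1, Mrpl47 and Mrps26. No member had a log2 fold change above 0 with the first scale, so none rose at an unadjusted p under 0.05 either, and DESeq2 called 77 lower and none higher. Across all 24382 genes tested on that first scale, 29.6% fell and 25.8% rose, and among the nuclear protein-coding ones 40.6% fell. The median log2 fold change of the Mrp genes was -2.94, beside 0.45 for all genes tested and -0.52 for nuclear protein-coding genes. Relative to the median of all genes the Mrp median was -3.39. Another scale shifts all genes nearly alike and so leaves this distance almost as it is, while it moved the median of all genes between 0.35 and 2.51. With other genes in the test the distance was -1.88 (minimum count of 50) and -2.42 (nuclear protein-coding genes alone). In 74 of the 78 genes every miR-206 library lay below every control, as in 30.3% of all genes tested. The exceptions Mrpl45, Mrpl47, Mrps24 and Mrps26 overlapped through control 1.

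Control 1 stood apart from the other controls for these genes. It was below both of them for 77 of 78 members, Mrps27 being the exception, with a median log2 difference of -1.23 from their mean. The largest gap was in Mrps24, at 2.38, 21.4 and 46.7 CPM in the controls and 6.83, 7.28 and 7.99 CPM in the miR-206 libraries. Without control 1, 78 of 78 tested Mrp genes fell. Across the 78 genes, log2 levels correlated with Pearson's r of 0.97 between control 2 and control 3, 0.87 and 0.83 between control 1 and these 2, 0.79 to 0.83 among the miR-206 libraries and 0.45 to 0.62 between the groups. These are descriptions across genes, which share length and base composition and are not independent replicates.

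Fold changes ranged from -4.41 for Mrpl28 to -1.08 for Mrpl47. Mrpl28 (bL28m, a conserved large-subunit protein, at chr17:26123500-26126613, plus strand) was at 51.8, 143 and 146 CPM in the controls and 5.06, 4.18 and 6.68 CPM in the miR-206 libraries. The groups were far apart (log2 fold change -4.41 ± 0.53 SE, adjusted p = 0.00031). Mrps6, which encodes bS6m of the small-subunit platform, was at 19.03, 28.02 and 39.2 CPM in controls and 1.64, 1.64 and 1.18 CPM in miR-206 libraries (log2 fold change -4.27 ± 0.41 SE, adjusted p = 0.000271). Next came Mrpl34 (bL34m), at 17.2, 71.8 and 71.8 CPM in the controls and 2.28, 3.27 and 3.01 CPM in the miR-206 libraries (log2 fold change -4.23 ± 0.57 SE, adjusted p = 0.000396). Mrpl20, whose bacterial homologue acts early in large-subunit assembly, was at 35.7, 125 and 116 CPM in controls and 5.31, 4.18 and 5.76 CPM in miR-206 libraries (log2 fold change -4.17 ± 0.54 SE, adjusted p = 0.000353). In each of these 4 genes control 1 was the lowest control and still lay above every miR-206 library. The 2 genes that did not pass were Mrpl47 (log2 fold change -1.08 ± 0.42 SE, adjusted p = 0.0507) and Mrps24 (log2 fold change -1.67 ± 0.74 SE, adjusted p = 0.0741).

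**Figure D2:**
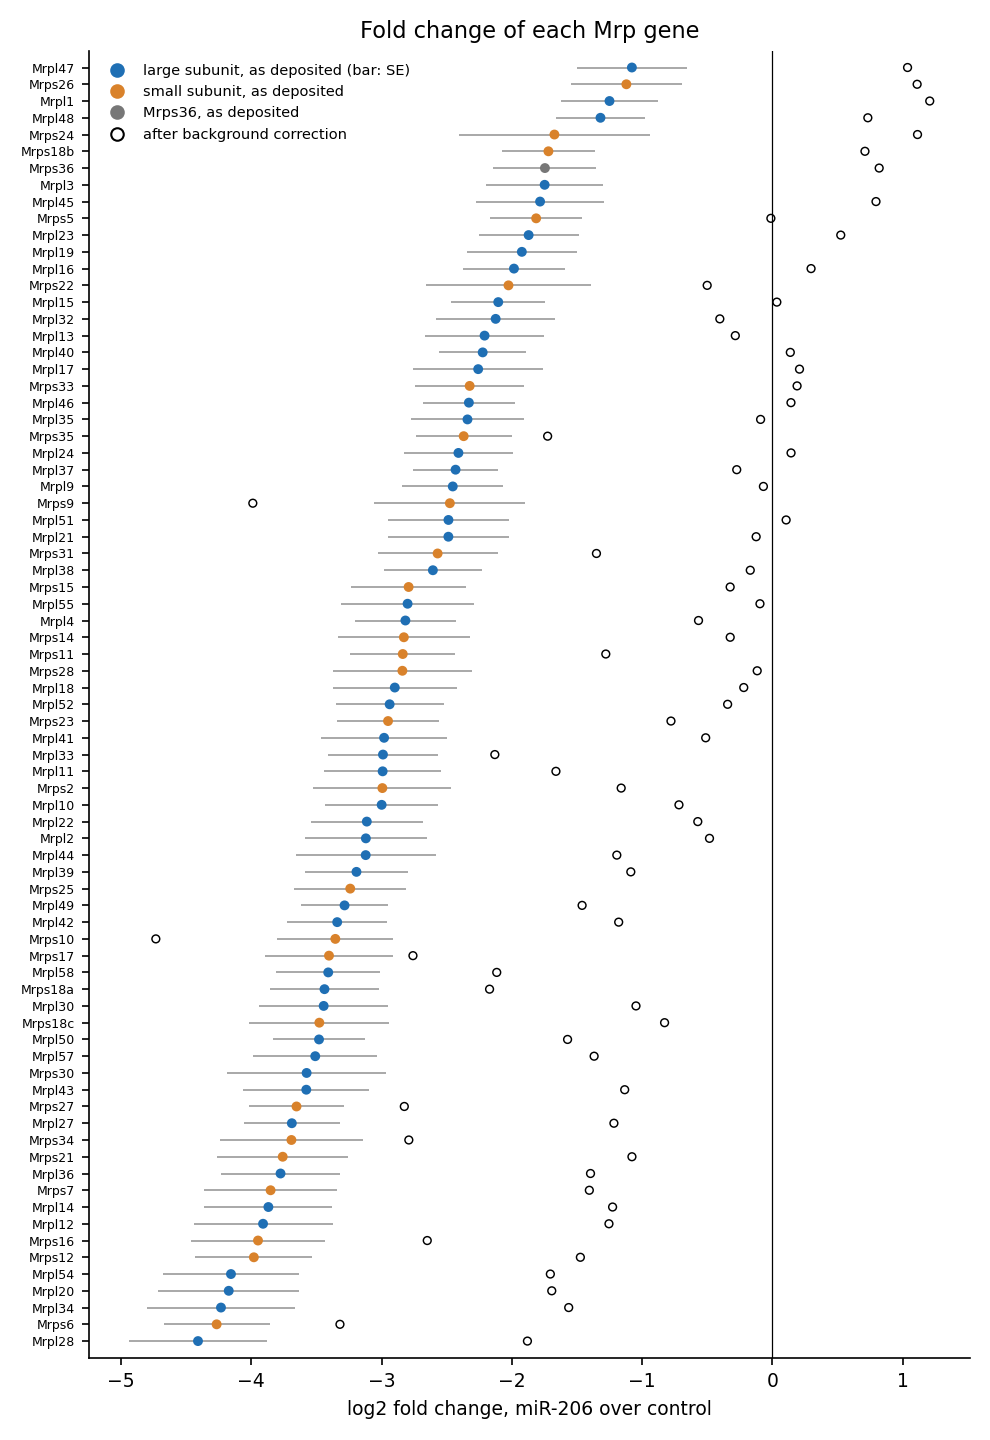
Log2 fold change of the 77 Mrp genes tested, miR-206 over control, ordered by the value with counts as deposited (filled points, blue for the large subunit, orange for the small, grey for Mrps36; bars are SE), with the background-corrected value as an open circle for the 73 genes that have one. As deposited, all filled points lie between -4.41 and -1.08, although 3 members rose under hepatocyte scaling; the open circles run from -4.73 to 1.21.

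In the large subunit 49 of 50 tested genes fell (median -2.96), and in the small subunit 25 of 26 (median -2.90). The 48 genes with a bacterial homologue had a median of -2.87 and the 28 tested mitochondria-specific genes one of -2.97. The 34 members that neither overlap another annotated gene nor have a pseudogene copy of at least 95% identity all fell (median -2.83), while among the other 44, whose counts are less certain, 41 of 43 tested fell (median -2.99). All these counts are from the fit in which 13 members fell and 3 rose under hepatocyte scaling. For the structural groups that follow, 29.6% of all genes tested fell and 30.3% had every miR-206 library below every control. Under hepatocyte scaling 59.5% of all genes rose, with a median of 2.51.

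The peptidyl transferase centre, where peptide bonds form, is lined by RNA with a few proteins near it. Mrpl2 (uL2m) was at 27.2, 79.3 and 71.7 CPM in the controls and 8.096, 7.28 and 5.11 CPM in the miR-206 libraries (log2 fold change -3.12 ± 0.47 SE, adjusted p = 0.000592). Mrpl27 (bL27m), whose bacterial homologue reaches toward the transfer RNAs, was at 42.4, 67.8 and 70.1 CPM in controls and 4.93, 4.55 and 4.45 CPM in miR-206 libraries (log2 fold change -3.69 ± 0.37 SE, adjusted p = 0.000271). Mrpl16 (uL16m) changed by -1.98 and Mrpl3 (uL3m, mutated in a human cardiomyopathy) by -1.75 on the log2 scale. All 4 fell as deposited, without overlap of the groups, but Mrpl3 and Mrpl16 had values above 0 under hepatocyte scaling. After correction 1 of the 3 tested fell (median -0.48), beside 20.3% of all genes. Mrpl3 was among the least abundant members per length, and its miR-206 counts were 0.878 times the level expected from the receptor genes.

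The L7/L12 stalk recruits translation factors to the ribosome. Mrpl12, its repeated flexible protein, had the most CPM of all members in each control: 61.2, 179 and 197 CPM in the controls against 11.3, 9.09 and 8.64 CPM in the miR-206 libraries (log2 fold change -3.91 ± 0.53 SE, adjusted p = 0.000412). At the stalk base, Mrpl10 was at 19.95, 37.5 and 42.5 CPM in controls and 5.95, 4.002 and 2.49 CPM in miR-206 libraries (log2 fold change -2.999 ± 0.43 SE, adjusted p = 0.000501), and Mrpl11 changed by -2.99. Mrpl54 was at 29.6, 62.5 and 64.2 CPM in controls and 4.17, 1.09 and 3.27 CPM in miR-206 libraries, with miR-206 2 the lowest (log2 fold change -4.16 ± 0.52 SE, adjusted p = 0.000331). Mrpl53 had too few counts for the test: 7, 32 and 29 in the controls and 0, 0 and 1 for miR-206 1, 2 and 3. Per normalised library size its miR-206 level was 0.0182 times the control level (95% exact interval 0.000454 to 0.105, counting error only). Mrpl53 shares 695 exonic bases on the same strand with Gm42688, so its count depends on how shared reads were assigned. Of the 4 stalk genes tested, 2 fell under hepatocyte scaling, beside 3.28% of all genes. After correction 2 of the 4 fell (median -1.46), beside 20.3% of all genes.

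Nascent proteins leave through the exit tunnel, which is held at the inner membrane by Mrpl45. Mrpl45 was at 10.04, 43.8 and 38.4 CPM in the controls and 8.73, 7.82 and 10.2 CPM in the miR-206 libraries (log2 fold change -1.78 ± 0.49 SE, adjusted p = 0.0118). Control 1 was below the highest miR-206 library, while control 2 and control 3 were far above all 3. Mrpl17, which lines the tunnel exit, was at 38.4, 130.0 and 136 CPM in controls and 23.3, 20.6 and 19.8 CPM in miR-206 libraries (log2 fold change -2.26 ± 0.50 SE, adjusted p = 0.00424). Mrpl22, Mrpl23 and Mrpl24, also around the exit, changed by -3.11, -1.87 and -2.41, and the mitochondria-specific Mrpl39 and Mrpl44 by -3.19 and -3.12. All 7 genes fell as deposited, but under hepatocyte scaling Mrpl17, Mrpl23, Mrpl24 and Mrpl45 had values above 0. After correction 1 of the 7 fell, beside 20.3% of all genes, and the median of the 7 was 0.14. Mrpl44 was the most uneven, at 1.77, 0.909 and 4.71 CPM in the miR-206 libraries.

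Of the central protuberance, which bridges the subunits, all 6 listed genes fell as deposited, but under hepatocyte scaling Mrpl40, Mrpl46 and Mrpl48 had values above 0. After correction none of the 6 passed in edgeR (median -0.0157), while 1 was lower at an unadjusted p under 0.05 and 1 fell in DESeq2. Mrpl18 (uL18m) was at 32.9, 91.7 and 105 CPM in controls and 10.2, 11.5 and 9.16 CPM in miR-206 libraries (log2 fold change -2.898 ± 0.48 SE, adjusted p = 0.000906). Mrpl58, a peptidyl-tRNA hydrolase built into the ribosome, was at 27.6, 40.99 and 44.2 CPM in controls and 2.15, 3.46 and 4.97 CPM in miR-206 libraries (log2 fold change -3.41 ± 0.40 SE, adjusted p = 0.000297). Mrpl38, Mrpl40 and Mrpl46 changed by -2.61, -2.22 and -2.33. Mrpl48 had the smallest change of the 6, from 29.2, 38.3 and 42.5 CPM to 18.6, 10.004 and 15.3 CPM (log2 fold change -1.32 ± 0.34 SE, adjusted p = 0.00898). Mrpl46 shares 173 exonic bases with Mrps11 on the opposite strand, where the starts of both genes overlap, and the strand setting of the counting is not given in the sources used here.

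In the small subunit, Mrps12 (uS12m) sits at the decoding centre, where the fit between codon and anticodon is read. It was at 40.03, 97.1 and 83.3 CPM in the controls and 5.44, 4.55 and 3.93 CPM in the miR-206 libraries (log2 fold change -3.98 ± 0.45 SE, adjusted p = 0.000281). Mrps7 (uS7m), which lies near the exiting mRNA, was at 38.7, 106 and 124 CPM in controls and 5.95, 7.64 and 5.11 CPM in miR-206 libraries (log2 fold change -3.85 ± 0.51 SE, adjusted p = 0.000383). Of the other conserved core genes, Mrps2 changed by -2.99, Mrps11 by -2.84, Mrps9 by -2.48 and Mrps5 by -1.81. All 6 fell as deposited, without overlap of the groups, but Mrps5 and Mrps9 had values above 0 under hepatocyte scaling. After correction 3 of the 6 fell (median -1.34), beside 20.3% of all genes.

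Of 9 small-subunit genes without a bacterial homologue all fell as deposited, although Mrps26 overlapped between groups, and under hepatocyte scaling 4 had values above 0, of which Mrps26 rose. After correction 2 of the 8 tested fell (median -1.06), beside 20.3% of all genes. Mrps27, a protein with pentatricopeptide repeats of the kind that bind RNA, was at 26.03, 30.2 and 20.7 CPM in controls and 2.15, 2.55 and 1.44 CPM in miR-206 libraries (log2 fold change -3.65 ± 0.36 SE, adjusted p = 0.000271). Here control 1 lay between the other controls. Mrps34, mutated in a human Leigh syndrome, was at 8.06, 29.7 and 36.6 CPM in controls and 2.02, 2.001 and 1.702 CPM in miR-206 libraries (log2 fold change -3.69 ± 0.55 SE, adjusted p = 0.000582). It shares exons with Nme3 on its strand and Mapk8ip3 on the other. Mrps26 had the smallest change of all called members, from 7.53, 19.6 and 22.9 CPM to 6.198, 10.004 and 6.94 CPM (log2 fold change -1.12 ± 0.43 SE, adjusted p = 0.0458). Mrps22, Mrps23, Mrps25, Mrps31, Mrps33 and Mrps35 lay between, from -3.24 (Mrps25) to -2.03 (Mrps22).

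3 genes encode proteins of the bS18 family, which take separate places in the ribosome. Mrps18a (large subunit) and Mrps18c (small subunit) changed by -3.44 and -3.48. Mrps18b was at 12.6, 24.7 and 27.1 CPM in controls and 6.96, 6.55 and 6.02 CPM in miR-206 libraries. Its fall was smaller (log2 fold change -1.72 ± 0.36 SE, adjusted p = 0.00302), and whether it differed from the others was not tested. Under hepatocyte scaling none of the 3 genes passed, and Mrps18b was above 0 (0.69). After correction 1 of the 3 fell (median -0.83), beside 20.3% of all genes. Mrps30 of the large subunit was the least abundant member per length, at 3.04, 11.5 and 9.51 CPM in controls and 0.632, 0.546 and 0.785 CPM in miR-206 libraries (log2 fold change -3.58 ± 0.61 SE, adjusted p = 0.00113), and its counts in the miR-206 libraries (5, 3 and 6) were below the expected background in all 3. Mrps36 of the dehydrogenase complex was at 12.02, 24.8 and 28.4 CPM in controls and 7.97, 6.91 and 4.58 CPM in miR-206 libraries (log2 fold change -1.75 ± 0.40 SE, adjusted p = 0.0047). Mrps36 has 4 annotated pseudogene copies of at least 95% identity, so its count depends on how reads were assigned.

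Per exonic kb, the levels of the members in the controls spanned from 1.20 ± 0.66 (Mrps30, mean ± SD, n = 3) to 105 ± 45.8 CPM per kb (Mrpl14), with a median of 15.5. Below Mrpl14 came Mrps21 at 101 ± 51.2 and Mrpl12 at 95.02 ± 48.1, and these neighbours did not differ beyond their spread. At the low end, Mrpl3 was at 2.05 ± 0.935 and Mrps25 at 2.83 ± 0.851 CPM per kb. In the miR-206 libraries Mrpl14 was at 7.198 ± 1.9004 and Mrps21 at 7.49 ± 1.44 CPM per kb. Between the groups the levels per kb had a Spearman's rho of 0.83 across the 78 genes, but division by the same lengths enters both, and without it (CPM alone) rho was 0.47. Measured against the longest transcript in place of all exons, Mrpl14 and Mrps21 were still the top 2 and Mrpl20 came next.

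Set against the receptor background, the median Mrp gene was at 71.6 times the expected background in the controls and at 3.41 times in the miR-206 libraries. In the controls no member was at or under it in any library. In the miR-206 libraries 16 members were at or under it in at least 1 library, and Mrpl53, Mrps25 and Mrps30 in all 3. The log2 fold change as deposited rose with exonic length across the 77 members (Spearman's rho 0.47) and fell with control level (-0.47) and GC content (-0.35). These are descriptions across genes, given without a test.

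**Figure D3:**
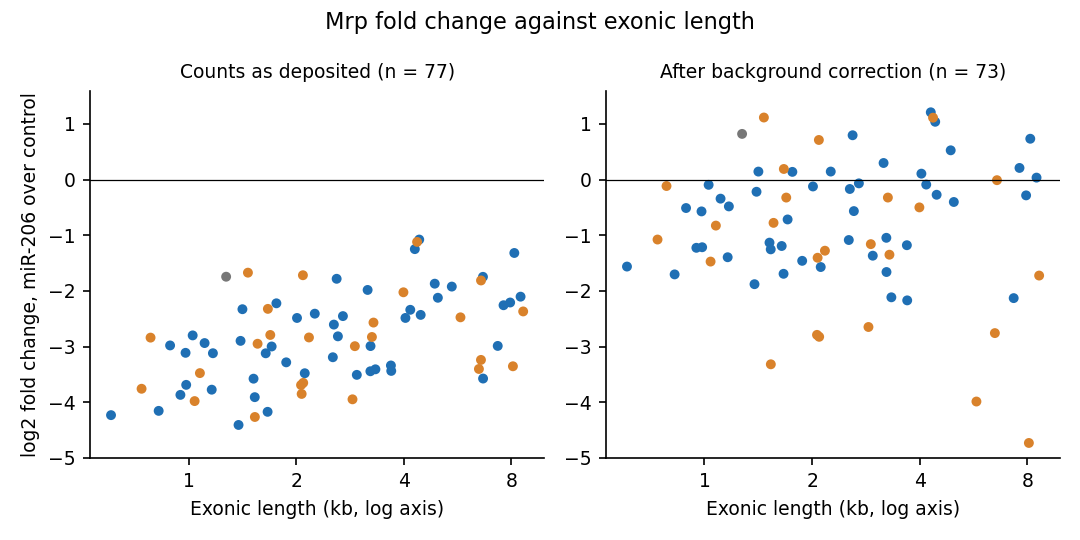
Log2 fold change (miR-206 over control) of each Mrp gene against its exonic length in kb on a log axis, with counts as deposited (left, 77 genes) and after background correction (right, 73 genes); blue, orange and grey points mark large-subunit genes, small-subunit genes and Mrps36. Shorter genes have lower values on the left (Spearman's rho 0.47) and the slope is nearly flat on the right (0.09); all points on the left are below 0 on this scale but not under hepatocyte scaling.

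Subtracting the expected background from each gene, with the test limited to nuclear protein-coding genes that averaged 10 times the background or more, left 73 of the 78 members in the test. Mrpl3, Mrpl19, Mrpl53, Mrps25 and Mrps30 did not pass. Most of the others passed through the controls, where their counts were high, so their number is no support for a fall. Of the 73, 23 fell and 1 rose in edgeR, beside 20.3% and 18.5% of all 6458 genes tested. The median was -0.72 for the members and -0.23 for all genes. The count rested on control 2 and control 3: 4 of 68 members fell without control 2 and 4 of 67 without control 3, beside 7.17% and 6.62% of all genes, so that the members were near the share of all genes there. The count was 39 of 76 with a minimum of 5 times background (27.1% of all genes) and 58 of 76 with no minimum (29.5%). At 20 times, 12 of 64 fell and 5 rose, beside 14.6% and 17.6% of all genes. With the 10-fold minimum but no subtraction, 28 of 73 fell and 4 rose, beside 22.9% and 22% of all genes. The member median was -0.65 there and -2.01 with subtraction but no minimum.

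The largest falls after correction were in genes whose miR-206 counts were near the background. Mrps10 (log2 fold change -4.73 ± 0.89 SE, adjusted p = 0.00631) was at 0.971 times the expected background in the miR-206 libraries and Mrps9 (log2 fold change -3.99 ± 1.21 SE, adjusted p = 0.0321) at 0.848 times. For Mrps6 (-3.32), Mrps27 (-2.83) and Mrps34 (-2.79) the ratios were 1.39, 1.38 and 1.33. The size of such a fold change therefore depends on a small remainder after subtraction.

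Mrpl28 (log2 fold change -1.88 ± 0.29 SE, adjusted p = 0.00397) and Mrpl20 (log2 fold change -1.69 ± 0.30 SE, adjusted p = 0.0056) fell after correction and with counts as deposited under every setting tried. These are conserved large-subunit proteins, at 5.69 and 4.51 times background in the miR-206 libraries. At 3 times background or more in the miR-206 libraries, 13 of 43 members fell and 1 rose after correction (median -0.32). Of all genes in that test, not limited in this way, 20.3% fell and 18.5% rose. Among members well above background, Mrpl12 (log2 fold change -1.25 ± 0.26 SE, adjusted p = 0.0084) and Mrps12 (log2 fold change -1.47 ± 0.26 SE, adjusted p = 0.00544) also fell. Mrpl14 (-1.23), Mrps21 (-1.08), Mrpl27 (-1.22) and Mrps7 (-1.405) did likewise. Mrpl18, at a similar level in the controls, was at -0.22 and did not pass (adjusted p = 0.526). With each library left out in turn, only 3 members were called lower after correction every time.

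Mrpl1 was the member that rose after correction. It encodes uL1m of the L1 stalk, where spent transfer RNA leaves the ribosome. With counts as deposited it was at 16.1, 39.5 and 34.4 CPM in the controls and 10.9, 14.4 and 12.7 CPM in the miR-206 libraries and fell (log2 fold change -1.25 ± 0.38 SE, adjusted p = 0.0177). As deposited but under hepatocyte scaling it rose (1.24), as did 59.5% of all genes. After correction its sign was the opposite of the first value (log2 fold change 1.21 ± 0.28 SE, adjusted p = 0.0127). With correction it was not called higher under library size alone, hepatocyte scaling, a minimum of 5 times background or subtraction without a minimum. Its miR-206 counts were 4.199 times background. It is 1 of the 7 genes with a miR-206 site. With counts as deposited those 7 had a median of -2.12 and the 70 tested without a site one of -2.97. The miR-206 counts were at a median of 1.96 times background in the 7, beside 3.82 in the 71 without a site. Fold changes as deposited also rose with exonic length (Spearman's rho 0.47). The part of length and background in this contrast was not tested.

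Other genes of mitochondrial translation were read from lists of known function. Of 5 ribosomal proteins without an Mrp symbol, 4 fell as deposited, and 3 fell and 1 rose under hepatocyte scaling. Gadd45gip1, a large-subunit protein, had control counts of 210, 482 and 470 and miR-206 counts of 17, 17 and 12 (log2 fold change -4.28 ± 0.43 SE, adjusted p = 0.000271), and the small-subunit protein Chchd1 had 180, 373 and 375 and 14, 6 and 23 (log2 fold change -4.12 ± 0.44 SE, adjusted p = 0.000274). Ptcd3, an RNA-binding small-subunit protein, did not pass as deposited (log2 fold change -0.76 ± 0.32 SE, adjusted p = 0.0625). After correction it rose by 1.42, but with hepatocyte scaling after correction 0 of the 5 rose.

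Among 15 translation factors 10 fell and 1 rose (median -1.24), while under hepatocyte scaling 6 rose (median 0.93), a smaller share than the 59.5% of all genes that rose on that scale (median 2.51). The rises under hepatocyte scaling given for the lists that follow are also to be read against that share. Beside all these lists, 29.6% of all genes tested fell and 25.8% rose as deposited, and 20.3% fell and 18.5% rose after correction. The insertase Oxa1l, which places new proteins in the membrane, changed by -3.03 and the elongation factor partner Tsfm by -2.501, while Guf1, a translational GTPase, rose (log2 fold change 0.96 ± 0.28 SE, adjusted p = 0.0153). After correction 4 of the 11 tested rose, among them Lrpprc (1.22), which stabilises mitochondrial mRNAs, and Mtif2 (1.98), the initiation factor. Of 24 assembly and rRNA-modifying factors 16 fell (median -1.81; 9 rose under hepatocyte scaling), including Ngrn (-2.95) and the helicase Ddx28 (-3.93). After correction 2 of 14 rose and 1 fell. Of 19 genes tested for charging mitochondrial transfer RNAs 10 fell (median -0.87), 9 rose under hepatocyte scaling, and after correction 3 of 10 rose. The smallest p belonged to Fars2 (-2.96) and Vars2 (-2.54), while Lars2 fell the most (-3.13). With hepatocyte scaling after correction, 1 translation factor and 1 assembly factor rose, and 1 assembly factor and 1 charging gene fell. In that fit 8.73% of all genes rose and 20.9% fell.

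Of 12 regulators of mitochondrial gene expression 9 fell (median -1.42), while under hepatocyte scaling 5 rose (median 1.10). After correction 2 of the 6 tested rose and 0 fell (median -0.198), and Tfam was at -0.33 and did not pass. Esrra, a nuclear receptor of mitochondrial programmes, had control counts of 17, 195 and 200 and miR-206 counts of 3, 5 and 7 (log2 fold change -4.36 ± 0.82 SE, adjusted p = 0.00183), below background in the latter on average. Tfam, which packages mitochondrial DNA, was at 92, 360 and 317 and 52, 25 and 54 (log2 fold change -2.22 ± 0.45 SE, adjusted p = 0.00255). The factors whose promoter letters were counted changed by -1.99 for Yy1 and -1.13 for Gabpa, which fell, and Nrf1 was at 0.45 (adjusted p = 0.206). Their miR-206 counts were 0.955 (Yy1), 1.63 (Gabpa) and 3.75 (Nrf1) times background, and they were not in the corrected test.

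The mRNAs that the mitochondrial ribosome translates are made in mitochondria. Their 13 genes had a median log2 fold change of 0.32 (2.37 under hepatocyte scaling, where 4 rose), and the smallest p of the list belonged to mt-Nd1 (log2 fold change 0.801 ± 0.85 SE, adjusted p = 0.425). Summed mitochondrial mRNA counts per Mrp count, after subtraction, were 242, 32.7 and 38.1 in the control group and 184, 1703 and 1059 in the miR-206 group. The groups overlapped, with control 1 above miR-206 1. The mitochondrial ribosomal RNAs were not analysed here.

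The nearest gene groups are the cytosolic ribosomal proteins, which build the ribosome outside mitochondria, and the nuclear subunits of the respiratory chain. With counts as deposited 76 of 76 tested cytosolic ribosomal protein genes fell (median -3.78) and 77 of 79 respiratory chain genes (median -3.96), beside -2.94 for the Mrp genes. Under hepatocyte scaling 64 and 60 of them still fell (medians -1.36 and -1.39, with 1 respiratory chain gene higher), beside 13 falls and 3 rises of Mrp genes (median -0.42). After correction the medians were -1.18 (68 of 76 fell) and -1.23 (59 of 77 fell), beside -0.72 (23 of 73). Whether the groups differ was not tested.

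Within a library, a ratio of summed counts needs no scaling. After subtraction, Mrp counts per 100 counts of cytosolic ribosomal proteins were 19.4, 23.2 and 22.4 in the control group and 29.4, 32.3 and 33.2 in the miR-206 group. Per 100 counts of respiratory chain subunits they were 18.01, 13.4 and 13.3 in the control group and 23.03, 22.2 and 23.02 in the miR-206 libraries. In both ratios every miR-206 library was above every control, and the same held for counts as deposited, at 20.3 to 23.3 against 39.9 to 43.6 and at 13.4 to 18.9 against 30.3 to 31.9. These are descriptions of summed counts without a test, and they do not show that any group was constant. The ratio of large-subunit to small-subunit counts after subtraction was 2.84, 2.49 and 2.55 in the control group and 3.69, 2.91 and 3.50 in the miR-206 group, but with counts as deposited miR-206 2 (2.51) lay within the controls (2.48 to 2.77).

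**Figure D4:**
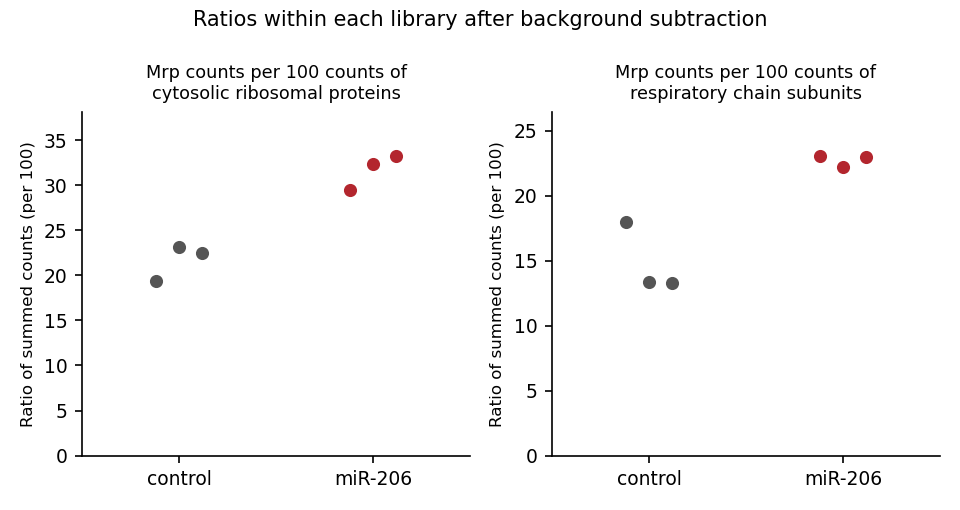
Summed Mrp counts per 100 counts of cytosolic ribosomal proteins (left) and of nuclear respiratory chain subunits (right) in each library after background subtraction; each point is 1 library. The miR-206 points lie at 29.4 to 33.2 and 22.2 to 23.03, above the controls at 19.4 to 23.2 and 13.3 to 18.01.

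**Figure D5:**
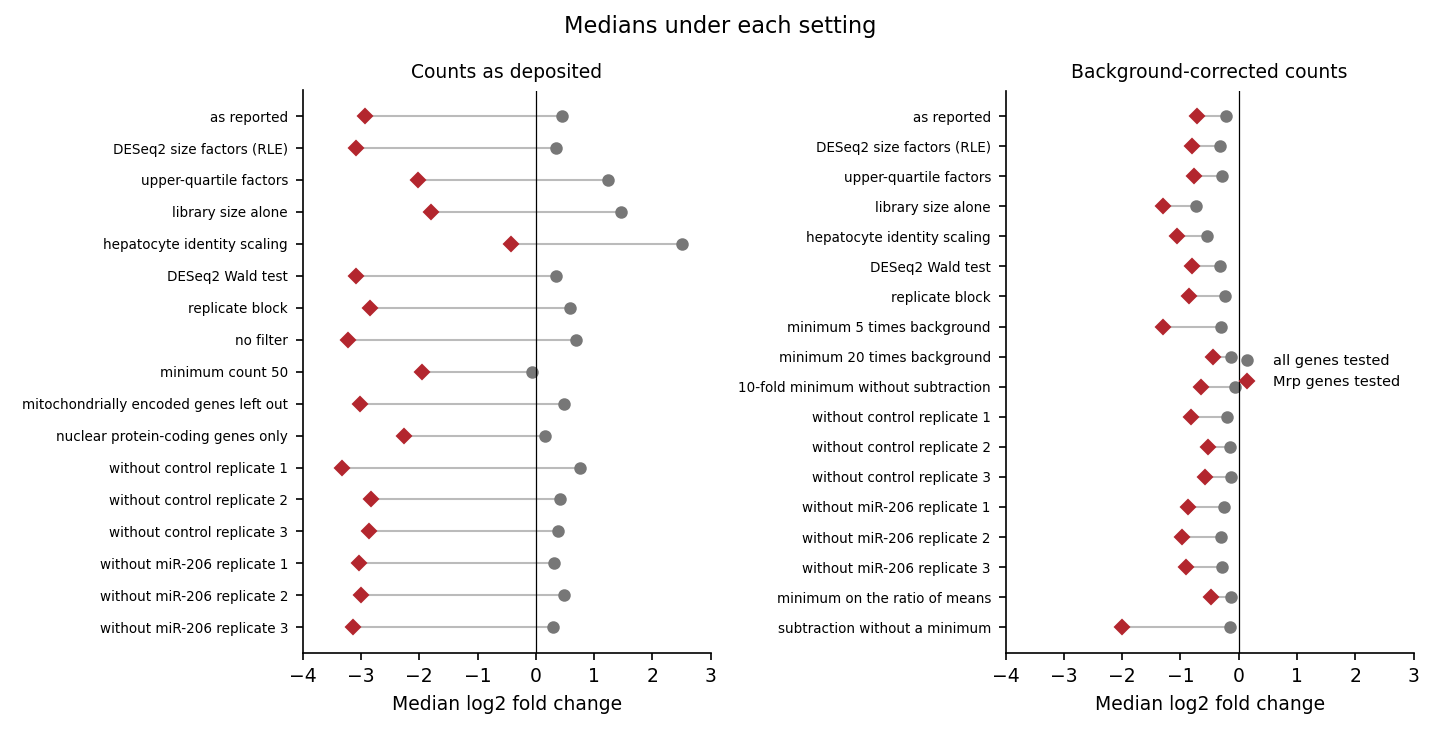
Median log2 fold change (miR-206 over control) of the Mrp genes tested (red diamonds) and of all genes tested (grey circles) under each setting, with counts as deposited (left) and background-corrected counts (right). The diamond is to the left of the circle in every row, by 2.93 under hepatocyte scaling on the left (a scale shifts both points nearly alike), where 13 Mrp genes fell and 3 rose, and by 0.49 in the first row on the right.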

How the data were processed

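Total RNA was extracted with the Qiagen RNeasy Micro Kit and libraries were made with a SMARTER mRNA-Seq kit, per the labels' protocols. The authors deposited 1 table of raw counts per Ensembl gene, whole numbers with no normalisation. The builds GRCm38 and mm10 are named in the submitters' processing notes. Aligner, counting program and annotation release were not given in the sources used here, nor was strandedness. Of 49315 rows, 49056 matched GENCODE M21 by identifier, and 174 carry no symbol.

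Tests on counts used edgeR 4.0.16 (glmQLFit, robust, glmQLFTest, TMM, filterByExpr minimum count 10, group as the single term, R 4.3.3), adjusted by Benjamini-Hochberg over all genes tested and called at 0.05. CPM values use TMM library sizes. In the background-corrected fit, counts per exonic kb over 1702 receptor genes (5503 kb) times exonic length were subtracted, values rounded, and genes kept at a mean of at least 10 times background. DESeq2 1.42.0 was an alternative. Levels per kb used exonic length. Pseudogene copies were blastn 2.17.0 hits of at least 95% identity over 200 bases. Seed matches were sought in the longest 3' UTR, and promoters, miR-206 and their coordinates came from RefSeq (GRCm38.p6). The main edgeR fit was tried on simulated counts without background. The background correction, hepatocyte scaling and DESeq2 were not tried in that way.

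The members, lists, tests and alternatives were chosen with earlier results of these data known. Named genes were those with a structural role in a list of 7 sites, the 5 largest rises and falls in each fit, the 3 highest and lowest per kb, Mrps30, Mrps36 and, of each pathway list, the 2 smallest p. Mrpl19, Mrpl32, Mrpl35, Mrpl47, Mrps10, Mrps17, Mrps24, Ptcd3, Guf1, Lars2, Lrpprc, Mtif2, Yy1, Gabpa and Nrf1 were named besides, or chosen after their values were seen.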

Additional observations from a re-analysis of the deposited data

How the results depend on the processing

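With counts as deposited, 60 to 77 Mrp genes fell and none rose under DESeq2 size factors, upper-quartile factors, library size alone, DESeq2, no filter, a minimum count of 50, removal of mitochondrially encoded genes or restriction to nuclear protein-coding genes, and 72 to 78 fell with 1 library left out. Hepatocyte identity scaling left 13 falls and 3 rises, and the log2 fold changes of 26 of the 75 members called lower turned positive. Of these, 8 were at 0.0100 to 0.46 (Mrpl9, Mrpl13, Mrpl15, Mrpl19, Mrpl21, Mrpl32, Mrpl35 and Mrpl51), and the other 18 were Mrpl1 (1.24), Mrpl16 (0.51), Mrpl17 (0.28), Mrpl23 (0.58), Mrpl24 (0.0413), Mrpl3 (0.73), Mrpl40 (0.0883), Mrpl45 (0.78), Mrpl46 (0.0824), Mrpl48 (0.89), Mrps18b (0.69), Mrps22 (0.60), Mrps26 (1.46), Mrps33 (0.0503), Mrps35 (0.0783), Mrps36 (0.69), Mrps5 (0.57) and Mrps9 (0.10). Mrpl1 and Mrps26 passed the test, as did Mrpl47 (1.47), which had not been called lower.

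With background-corrected counts, 23 fell and 1 rose. Leaving out 1 library gave 4 (without control 2 or control 3) to 25 falls and 1 to 2 rises. No rise was called with library size alone or hepatocyte scaling (0 rises each), where 25 and 24 fell, and DESeq2 called 29 falls and 1 rise. A minimum of 5 times background gave 39 falls and 0 rises, a minimum of 20 times gave 12 falls and 5 rises, and the 10-fold minimum without subtraction gave 28 falls and 4 rises. In 2 alternatives chosen after seeing the data, the minimum on the ratio of means gave 13 falls and 4 rises, and subtraction without a minimum gave 58 falls and 0 rises, with negative values that passed in Mrpl17 (-1.02), Mrpl24 (-1.06), Mrpl40 (-1.03), Mrpl46 (-1.04) and Mrps33 (-1.01). The cause of these differences was not tested, beyond the different genes and libraries that each alternative holds.

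Deviations of same-numbered libraries correlated at 0.007, 0.019 and -0.006. With 3 libraries per group and no label that ties a library to an animal, these values cannot settle whether replicate numbers pair the libraries. With the replicate block 75 members fell as deposited, and 20 fell and 1 rose after correction. The median level per kb in controls was 15.5 over all exons and 19.5 over the longest transcript. Between 33.5% and 35.5% of Mrp counts in the miR-206 libraries equal the expected background, which limits the size of any fold change there.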
